A study of Mus musculus with 5 samples.

Results

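Metallothioneins are small, cysteine-rich proteins that bind zinc, copper and cadmium in the cytosol, and the mouse genes Mt1 and Mt2 encode the widely expressed forms. The report describes these genes with Slc30a1 (ZnT1), which exports zinc across the plasma membrane, and Slc39a14 (ZIP14), which imports zinc and also iron and manganese. The label given to the group, metallothioneins, fits 2 of the 4 genes, and the other 2 are zinc transporters. The genes were chosen by name, 4 of the 28692 gene entries in the files, and the rule that picks them uses no measured value, though it was written with earlier results of these data known. As background, the zinc-sensing factor MTF-1 (Mtf1) drives Mt1, Mt2 and Slc30a1 through short metal response elements. Glucocorticoids and the IL-6 and STAT3 pathway are also known to raise metallothioneins, and IL-6 is known to raise Slc39a14. In the kidney, metallothionein is best known for binding cadmium in the tubule.

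C57/BL6 mice, 8 weeks old, had the ureter of a single kidney tied off (unilateral ureteric obstruction, UUO), and in some the block was later undone. Droplet libraries counted with unique molecular identifiers (UMIs) held 3 pooled mice each: a sham-operated library (day 0), obstruction of 2 days, obstruction of 7 days, and reversed UUO, sampled at experimental day 14 when 7 days had passed since the block was undone. A full-length Smart-seq2 sample of 768 wells mixed all time points. No transgene or Cre is named in the labels. With 1 library per time point there is no replicate and no test, and every interval below is a 95% interval for counting error only, so the spread between mice is unknown.

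The kept cells numbered 3933 for sham, 2207 for day 2, 4447 for day 7 and 3236 for reversed UUO, and 86.5 to 95.9% of them passed the marker gate of 1 cell class. Median UMIs per deposited cell ran from 2480.5 in sham to 5668 at day 7, and the median mitochondrial share from 3.0% at day 7 to 40.6% in sham. Pairs of libraries shared 16 to 39 cell barcodes. In each of the 12 gated classes, at least 2 of the top 10 genes by fold were its own markers and none was a marker of another class. The gate used the same markers, so this is no independent check of the classes. Classes with fewer than 30 cells in a library are given without ratios. Levels are in CPM (a gene's UMIs scaled to the total of the class), and ratios are log2 ratios of CPM plus 1.

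Mt1 and Mt2 lie next to each other on chromosome 8, on the plus strand (GRCm38, GENCODE M21). Mt2 (ENSMUSG00000031762) spans 94172664 to 94173568 and Mt1 (ENSMUSG00000031765) spans 94179082 to 94180327, 5513 bases apart, each with 3 exons. Slc30a1 (ENSMUSG00000037434) lies on chromosome 1, 191906767 to 191913247, plus strand, with 2 exons. Slc39a14 (ENSMUSG00000022094) lies on chromosome 14, 70303469 to 70351425, on the minus strand. All are protein-coding. The longest run of bases shared by the main transcripts of Mt1 (549 bases) and Mt2 (511 bases) was 20.

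The windows before the first annotated start are shown because Mt1 and Mt2 varied together across classes and libraries, as described below. RefSeq promoter windows (GRCm38.p6) were found for 3 of the 4 genes and the first 236 bases of each are given, which lie before every GENCODE start of its gene. Each is written 5′ to 3′ on the plus strand, and capitals mark the core of a metal response element, TGCACNC or TGCGCNC, on either strand.
Mt2, chr8:94172368-94172603: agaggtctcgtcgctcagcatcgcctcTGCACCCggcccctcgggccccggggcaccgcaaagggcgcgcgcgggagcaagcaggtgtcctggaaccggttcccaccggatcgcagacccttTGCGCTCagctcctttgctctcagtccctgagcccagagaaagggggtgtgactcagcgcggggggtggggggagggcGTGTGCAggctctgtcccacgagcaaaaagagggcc
Mt1, chr8:94178839-94179074: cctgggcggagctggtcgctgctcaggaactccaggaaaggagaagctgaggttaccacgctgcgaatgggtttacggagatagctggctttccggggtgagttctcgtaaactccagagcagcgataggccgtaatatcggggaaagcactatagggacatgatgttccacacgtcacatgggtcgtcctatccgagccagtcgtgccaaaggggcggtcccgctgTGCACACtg
Slc30a1, chr1:191906531-191906766: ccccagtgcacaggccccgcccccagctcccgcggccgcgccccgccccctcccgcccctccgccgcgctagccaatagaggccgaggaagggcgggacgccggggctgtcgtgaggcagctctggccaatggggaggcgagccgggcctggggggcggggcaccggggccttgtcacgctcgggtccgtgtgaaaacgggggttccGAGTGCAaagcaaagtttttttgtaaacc

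The Mt2 window held 3 cores, 263, 168 and 90 bases before the first GENCODE start, and 1.12% of the 32851 windows of the same length held at least as many. Mt1 and Slc30a1 each held 1 core, 10 and 23 bases before that start, and 20.1% of all windows held 1 or more. Mt1 and Mt2 have several annotated starts, so the stretch between the first and the last start was also searched. It held 4 cores over 159 bases in Mt1 and 3 cores over 196 bases in Mt2, with no overlapping pair. Among protein-coding transcripts, 0.0665% held 4 or more in their first 159 bases and 0.580% held 3 or more in their first 196. The antioxidant response element TGANNNNGC occurred 1 time in the Mt2 window, 2 times in the Slc30a1 window and not in the Mt1 window, against 33.4% of all windows with a match. The STAT motif TTCNNNGAA, found in 6.64% of all windows, occurred in none of the 3. None of these matches overlapped a metal response element core, and a match of letters describes the sequence and shows no binding.

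Over whole libraries both metallothioneins were highest at day 2, and the zinc exporter differed little between libraries. The level of Mt1 was 296 CPM in sham, 1028 at day 2, 554 at day 7 and 496 after reversal. That of Mt2 was 46.4, 372, 175 and 153 CPM in the same order. Slc30a1 stood at 15.7, 16.7, 13.7 and 16.2 CPM, and Slc39a14 at 6.70, 14.7, 11.5 and 10.1 CPM. Sham was lowest for both metallothioneins, and the 4 values of Slc30a1 had overlapping intervals. A whole-library level mixes level per cell with the make-up of the suspension: proximal tubule cells were 80.2% of kept cells in sham and 4.07% at day 7. The 2 other metallothionein genes were rare. Mt3 reached 28.1 CPM (19 UMIs) in sham loop of Henle cells and had at most 19 UMIs in any class and library, and Mt4 had 0 UMIs.

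The largest share of Mt1 and of Mt2 transcripts in sham and at day 2 came from the loop of Henle, the salt-reabsorbing segment marked here by Slc12a1, Umod and Egf. Loop cells were 4.53% of kept sham cells and held 42.5% of the Mt1 UMIs, and at day 2 they were 11.6% of cells with 54.2% of the UMIs. At day 7 their part was 15.1%, and mononuclear phagocytes, 53.7% of cells, held 45.5%. After reversal loop cells held 25.4% and phagocytes 31.3%. Proximal tubule cells, at 80.2% of sham cells, held 30.8% of its Mt1 UMIs. The order differed for Mt2. Loop cells held 56.2% of its UMIs in sham and 61.9% at day 2. At day 7 stroma, 1.75% of cells, held 25.6% of them, the loop 21.4% and phagocytes 19.4%. After reversal the loop held 27.2%, stroma 19.0% and phagocytes 17.1%.

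Loop of Henle cells carried Mt1 at 2475 CPM in sham (178 cells, interval 2358 to 2596), 4348 at day 2 (255 cells, 4262 to 4436), 1885 at day 7 (135 cells, 1812 to 1960) while reversed UUO had 2081 (194 cells, 2002 to 2162). Mt2 stood at 514, 1798, 845 and 689 CPM in the same order. Day 2 was the highest library for both genes, and none of the intervals of the 4 libraries overlapped for either. Mt1 was higher at day 2 than in sham by a log2 ratio of 0.81 (0.74 to 0.89), and Mt2 by 1.81 (1.65 to 1.97). From day 2 to day 7 the ratios were -1.21 for Mt1 and -1.09 for Mt2. Reversed UUO differed little from day 7, at 0.14 for Mt1 and -0.29 for Mt2. Against sham, Mt1 was slightly lower after reversal (-0.25, -0.34 to -0.16) and Mt2 slightly higher (0.42, 0.24 to 0.61). Both values moved with the processing: TMM factors gave -0.51 for Mt1 and 0.16 for Mt2, and cells with at most 20% mitochondrial UMIs gave -0.83 and 0.07.

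**Figure D1:**
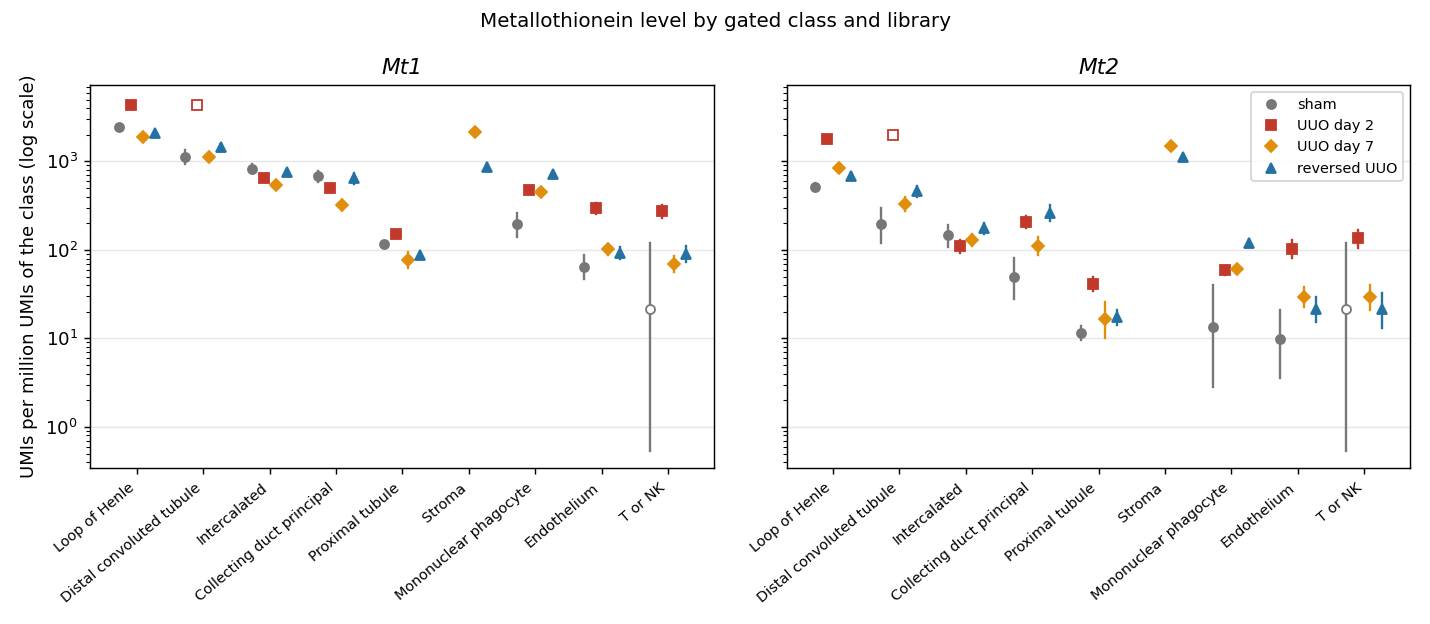
Level of Mt1 and Mt2 in CPM (log axis) for each gated class and library, with exact Poisson intervals; open symbols have fewer than 30 cells, and classes under 20 cells or with no UMI are left out. Loop of Henle cells lie at 1885 to 4348 for Mt1, against 77.8 to 150 for proximal tubule cells.

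Of the 4 genes, Mt2 alone passed 2-fold in loop cells for day 2 against sham, where 9.5% of 7474 genes were 2-fold higher and 4.67% lower. Slc30a1 was at 10.4 CPM in sham (7 UMIs) and 21.6 at day 2, a ratio of 0.99 with an interval from -0.09 to 2.21. Slc39a14 was at 17.8 and 21.6 CPM. From day 2 to day 7, Mt1 and Mt2 were both 2-fold lower, and 1.28% of 8410 genes were. None of the 4 passed 2-fold after reversal against day 7 (2.6% of genes higher, 3.18% lower) or against sham (12.8% higher, 1.9% lower). The summed Mt1 and Mt2 level for day 2 against sham had a log2 ratio of 1.04, and it was 0.77 when mitochondrial UMIs were left out of the totals, 0.88 over cells with at most 20% mitochondrial UMIs and 0.98 with DESeq2 size factors. The mitochondrial share of loop-cell UMIs was 34.1% in sham and 20.4% at day 2, and its part in the difference was not tested beyond these values.

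The higher level of day 2 was uneven among loop cells. The median cell had 2264 Mt1 CPM in sham, 2788 at day 2, 1308 at day 7 and 1642 after reversal. The 90th percentile was 4514, 9125, 3839 and 4197 CPM in the same order, and the highest cell of day 2 held 474 Mt1 UMIs. Day 2 therefore stood apart more in its upper cells than in its median. The 10% of loop cells with most Mt1 UMIs held 31.9% of them in sham, 42.9% at day 2, 37.1% at day 7 and 38.2% after reversal. Both metallothioneins were found in 62.4% of sham loop cells and 91.4% of day 2 loop cells at unequal depths, with median UMIs per cell of 3744 and 8408. At an equal 1000 UMIs per cell, Mt1 was found in 85.4% of sham loop cells, 87.8% at day 2, 71.9% at day 7 and 70.1% after reversal.

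**Figure D2:**
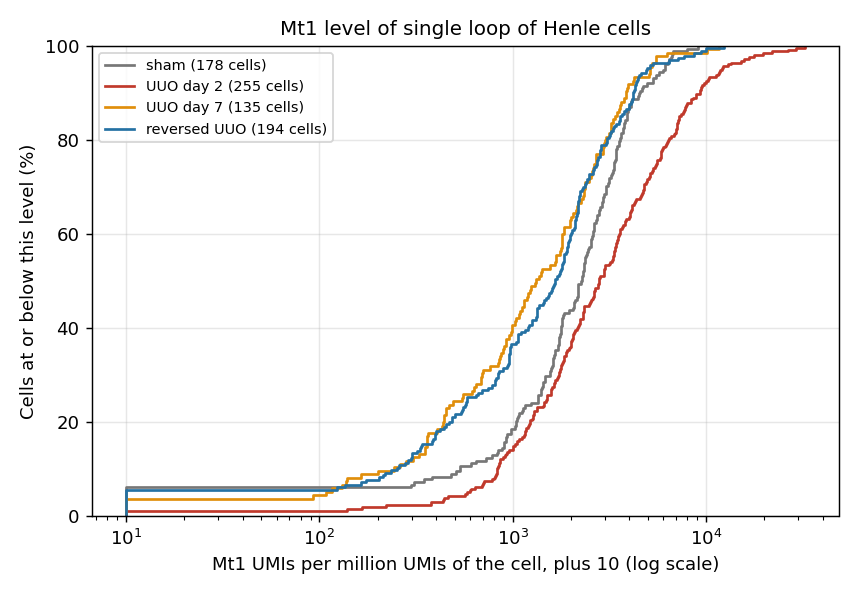
Cumulative share of loop of Henle cells (vertical axis, percent) at or below a given Mt1 level (CPM of the cell plus 10, log axis), 1 line per library. The line of day 2 lies to the right of the others in its upper part, with a 90th percentile of 9125 against 4514 in sham.

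Loop cells with a UMI of an injury marker did not hold more Mt1 than those without in the 1 library where both could be counted. Such a UMI can come from free RNA and is likelier in deeper cells, so the split need not separate injured cells. The part of either was not tested. UMIs of Havcr1 (KIM-1), Krt20 or Lcn2 (neutrophil gelatinase-associated lipocalin) were present in 249 of 255 loop cells at day 2 and in 130 of 135 at day 7. After reversal, 92 cells with such a UMI had 1857 Mt1 CPM (1759 to 1960) and 102 cells without had 2372 (2244 to 2504). Mt2 ran the other way in the same cells, at 771 CPM with (708 to 838) and 581 without (519 to 648). The order of Mt1 was the same in distal convoluted tubule cells after reversal, at 761 CPM in 16 cells with such a UMI and 1995 in 33 without.

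Distal convoluted tubule cells, the segment after the loop, were the next epithelium in order of Mt1 and Mt2 level in sham, at day 7 and after reversal, and at day 2 they were not below the loop. Their Mt1 was at 1129 CPM in sham (30 cells), 4360 at day 2 (25 cells), 1114 at day 7 (44 cells) and 1443 after reversal (49 cells). The day 2 value is set beside the others without a ratio because of its 25 cells, and its interval (4081 to 4653) overlapped that of the loop. One of those cells held 170 of the 908 Mt1 UMIs. Without the cell of most UMIs of each class, Mt1 at day 2 was at 3902 CPM, below the loop at 4169, with overlapping intervals. Mt2 was at 196, 2012, 334 and 462 CPM. Loop markers in these cells were at 8.23 to 12.4% of their level in loop cells, and Mt1 at 45.6% or more of its loop level. After reversal against sham Mt2 was 2-fold higher (1.23, 0.58 to 1.95), as were 19.2% of the 2086 genes counted. The sham level rested on 21 Mt2 UMIs. Mitochondrial UMIs were 38.7% of the sham total and 23.7% of the reversed one. With totals that leave them out, the Mt2 ratio is below 2-fold.

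In collecting duct principal cells, which reabsorb water through Aqp2, Mt1 and Mt2 had ratios of opposite sign at day 2. Mt1 was at 679 CPM in sham, 503 at day 2, 325 at day 7 and 643 after reversal, in 57, 72, 95 and 46 cells. Mt2 was at 49.4, 207, 112 and 262 CPM. Against sham, day 2 was lower for Mt1 (-0.43, -0.68 to -0.18) and higher for Mt2 (2.05, 1.29 to 2.90), which passed 2-fold with 13.9% of 4453 genes. Over cells with at most 20% mitochondrial UMIs the Mt1 ratio was 0.05 and that of Mt2 1.74, so the opposite direction of Mt1 did not hold there. The difference between the 2 ratios was not tested. After reversal 1 cell held 52 of the 228 Mt1 UMIs and 1 cell held 44 of the 93 Mt2 UMIs. Without the cell of most UMIs, Mt1 was at 511 CPM and Mt2 at 142. With that cell left out of each library, the ratio of reversed UUO to day 7 for Mt2 went from 1.22 to 0.55. In that comparison 1.91% of genes were 2-fold higher. Against sham the Mt2 ratio of reversed UUO was 2.39 (1.66 without the cell of most UMIs of each library), past 2-fold with 8.11% of genes.

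Intercalated cells, which carry acid and base, had no ratio of Mt1 or Mt2 past 2-fold in any of the 4 comparisons. Their Mt1 was at 827 CPM in sham, 655 at day 2, 546 at day 7 and 762 after reversal, and their Mt2 at 146, 110, 129 and 176 CPM. The shares of all genes 2-fold higher and lower were 11% and 3.66% for day 2 against sham, 4.12% and 1.18% from day 2 to day 7, 2.09% and 3.62% for reversed UUO against day 7, and 10.5% and 1.57% against sham. Day 2 was lower than sham for Mt1 (-0.34, -0.53 to -0.13), and the Mt2 interval (-0.88 to 0.09) held 0. One sham cell held 20 of the 48 Mt2 UMIs. Without the cell of most UMIs of each library the Mt2 ratio was 0.23 in place of -0.41. Without Havcr1, Krt20 or Lcn2 UMIs, day 2 intercalated cells had 427 Mt1 CPM (372 to 488), and with them 790 (732 to 851). Loop markers in intercalated cells stood at 0.871% of their loop level in sham and 7.69% at day 2, and their part in these values was not tested.

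Proximal tubule cells, the bulk of the sham library, had more Mt1 than endothelial cells in sham and less at day 2, and the intervals of their levels overlapped at day 7 and after reversal. Mt1 was at 118 CPM in sham (3155 cells), 150 at day 2 (568 cells), 77.8 at day 7 (181 cells) and 86.9 after reversal (1106 cells). Endothelial cells of the same libraries had 64.9, 294, 102 and 91.9 CPM, and T or NK cells 21.3 (1 UMI), 274, 69.5 and 90.4. In the last 3 libraries the proximal tubule was thus below 1 or both of these classes. With the top cell of each class left out, this did not hold after reversal. Proximal tubule was then at 84.5 CPM, endothelium at 69.0 and T or NK cells at 82.1. At day 2 the levels were then 143, 222 and 104 CPM in the same order. At 1000 UMIs per cell, a Mt1 UMI was found in 9.16% of sham proximal tubule cells (8.18 to 10.2%) and in 3.14% of endothelial cells (1.27 to 6.36%), with median depths of 2612 and 2374 UMIs. At day 2 the shares were 12.3% and 15.0%, at day 7 8.84% and 7.98%, and after reversal 7.32% and 7.80%. The shares of T or NK cells were 11.4%, 4.67% and 8.49% in those 3 libraries. In sham the proximal tubule share was above the endothelial one with separate intervals. In the other 3 libraries its intervals overlapped those of both classes, so no expression is read from those shares, and the part of free RNA was not tested.

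The summed Mt1 and Mt2 level of proximal tubule cells was 0.56 higher at day 2 than in sham (0.42 to 0.70), and it stood at -1.02 at day 7 against day 2 (-1.31 to -0.73). Reversed UUO stood at 0.14 against day 7 and at -0.31 against sham. Of the 4 genes, Mt2 and Slc39a14 passed 2-fold at day 2 (Mt2 at 11.6 CPM in sham and 41.7 at day 2, a ratio of 1.76), with 8.24% of 9983 genes. The Slc39a14 ratio of 1.04 was just past 2-fold, and TMM factors (0.791 in sham, 1.01 at day 2) take it below. From day 2 to day 7 Mt2 was 2-fold lower, as were 1.63% of genes. No member passed 2-fold after reversal against sham (8.84% of genes higher, 0.132% lower). The direction of the sum for day 2 against sham turned under each subtraction. Subtracting the level of pooled phagocytes, T or NK cells and endothelium gave -4.58 for the sum and -0.34 for Mt2. Every class of that pool had more Mt1 and Mt2 at day 2 than proximal tubule. Mt1 was at 472 CPM in phagocytes and 150 in proximal tubule. Nothing could remain of either gene, so no conclusion is drawn from these values. Subtracting the T or NK level gave -6.46 for the sum, and -0.92 without the top cell of that class. That level was also above proximal tubule at day 2, at 274 Mt1 CPM, and its sham value rests on 20 cells. TMM factors gave 0.21. Over cells with at most 20% mitochondrial UMIs the summed value of day 2 against sham was 1.23, and that of reversed UUO against sham changed sign, to 0.29. In sham 1 proximal tubule cell held 41 Mt1 UMIs, and the 10% of cells with most held 65.5% of all.

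Cells of the first proximal segment, S1, had more Mt1 than those of the last, S3, in sham: 122 CPM (113 to 131, 1491 cells) against 77.1 (64.1 to 91.9, 409 cells). The endothelial level of that library was 64.9. The day 2 values were 164 and 100 CPM, those of day 7 were 92.4 and 66.6, and those of reversed UUO 90.03 and 79.9. Endothelial cells stood above both segments in these 3 libraries, so no order of expression is read from them. After reversal that rested on 1 endothelial cell with 44 of the 170 Mt1 UMIs. Without it the endothelial level was 69.0 CPM (57.5 to 82.1), below both segments. Proximal tubule cells with and without injury-marker UMIs had 143 and 159 Mt1 CPM at day 2, with overlapping intervals.

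Mononuclear phagocytes, the macrophages, monocytes and dendritic cells the series is named for, had more Mt1 in every obstructed or reversed library than in sham. Their Mt1 was at 195 CPM in sham (43 UMIs in 60 cells, 141 to 263), 472 at day 2 (523 cells, 454 to 490), 452 at day 7 (2388 cells, 442 to 463) while reversed UUO had 716 (587 cells, 692 to 741). Mt2 was at 13.6 CPM (3 UMIs), 58.7, 60.9 and 121 CPM. Sham was lowest and reversed UUO highest for both genes, and day 2 and day 7 overlapped. Mt1 was higher than sham by a log2 ratio of 1.27 at day 2 (0.83 to 1.73) and 1.87 after reversal (1.44 to 2.33). Reversed UUO was above day 7 by 0.66 (0.60 to 0.72) for Mt1 and 0.98 (0.83 to 1.13) for Mt2.

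In phagocytes at day 2, both metallothioneins were 2-fold higher than in sham, a fold passed by 19.1% of 8954 genes. After reversal against sham both passed 2-fold as well, with 18.5% of 8889 genes. From day 2 to day 7 neither passed it (7.93% of genes higher, 2.78% lower), nor from day 7 to reversed UUO, where 2.03% of 11849 genes were 2-fold higher. At an equal 1000 UMIs, a Mt1 UMI was found in 20% of sham phagocytes (10.8 to 32.3%), 31.2% at day 2, 29.6% at day 7 and 37.5% after reversal (33.5 to 41.5%). The shares in T or NK cells were 0 of 20 cells, 11.4%, 4.67% and 8.49%. Subtracting the T or NK level made the summed day 2 value against sham -0.45 in place of 1.34. One T or NK cell of day 2 held 97 of the class's 154 Mt1 UMIs, and the subtraction without it gave 1.09. Loop markers in phagocytes were at 0.585 to 1.32% of their loop level, while phagocyte Mt1 was at 7.90 to 34.4% of its loop level.

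Phagocyte subsets differed in level within a library. Macrophages gated on C1q chains had 548 Mt1 CPM at day 2 (523 to 574), 492 at day 7 (480 to 504) and 827 after reversal (796 to 859). Monocytes gated on Ly6c2, Plac8 and Chil3 had 383, 216 and 365 CPM, and dendritic cells 328, 428 and 464. C1q macrophages were above both in all 3 libraries, with intervals that did not overlap.

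Fibroblasts and other stromal cells, marked by Col1a1, Col3a1 and Dcn, had the highest Mt1 and Mt2 CPM of the non-epithelial classes at day 7 and after reversal, and the highest percent of Mt2 in the UMIs of the pair. Day 7 stroma (78 cells) had 2151 Mt1 CPM (2057 to 2249) and 1491 Mt2 CPM. After reversal (66 cells) the levels were 871 for Mt1 and 1124 for Mt2. Mt1 was 2-fold lower after reversal than at day 7 (-1.303, -1.45 to -1.16), and 5.77% of 6139 genes were. Mt2 stood at -0.41 (-0.55 to -0.27). One reversed cell held 173 of the 608 Mt2 UMIs, and without it the Mt2 level was 825 CPM. With the cell of most UMIs left out of day 7 as well (1314 CPM), the ratio was -0.67. Sham had 1 and day 2 had 5 gated stromal cells, so no earlier comparison was made.

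Endothelial cells were highest at day 2. Mt1 was at 64.9 CPM in sham (46.4 to 88.4), 294 at day 2 (257 to 336), 102 at day 7 and 91.9 after reversal, in 223, 160, 476 and 372 cells. Mt2 was at 9.73 CPM (6 UMIs), 103, 29.6 and 21.6. Both genes were 2-fold higher at day 2 than in sham (2.16 for Mt1, 3.28 for Mt2), a fold that 3.46% of 6308 genes passed, and 2-fold lower at day 7, with 2.72% of 8602 genes. These directions did not hold when the T or NK level of each library was subtracted. Endothelial Mt1 was then at -1.04 for day 2 against sham and 0.61 for day 7 against day 2, and Mt2 at 0 and 0.31. With the top T or NK cell left out of that level, Mt1 was at 1.54 and -2.26, and Mt2 at 2.74 and -3.90. The sham T or NK level rests on 20 cells. A single day 2 cell held 57 of the 225 Mt1 UMIs and without it the level was 222 CPM. Without the cell of most UMIs of each library the ratio of day 7 to day 2 was -1.18 for Mt1 and -1.26 for Mt2. Reversed UUO against sham passed 2-fold for Mt2 (1.08, -0.09 to 2.39), with 7.31% of genes, on 6 sham UMIs. T or NK cells also stood highest at day 2, at 274 CPM, and at 104 without 1 cell. Their Mt1 and Mt2 were 2-fold lower at day 7 (1.54% of genes), at -1.96 and -2.17. Neither was without the cell of most UMIs of each library (-0.73 and -0.34). Endothelial loop markers were at 0.622% of their loop level in sham, 1.44% at day 2, 1.07% at day 7 and 1.15% after reversal, and Mt1 was at 2.62, 6.77, 5.39 and 4.42% of its loop level.

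**Figure D3:**
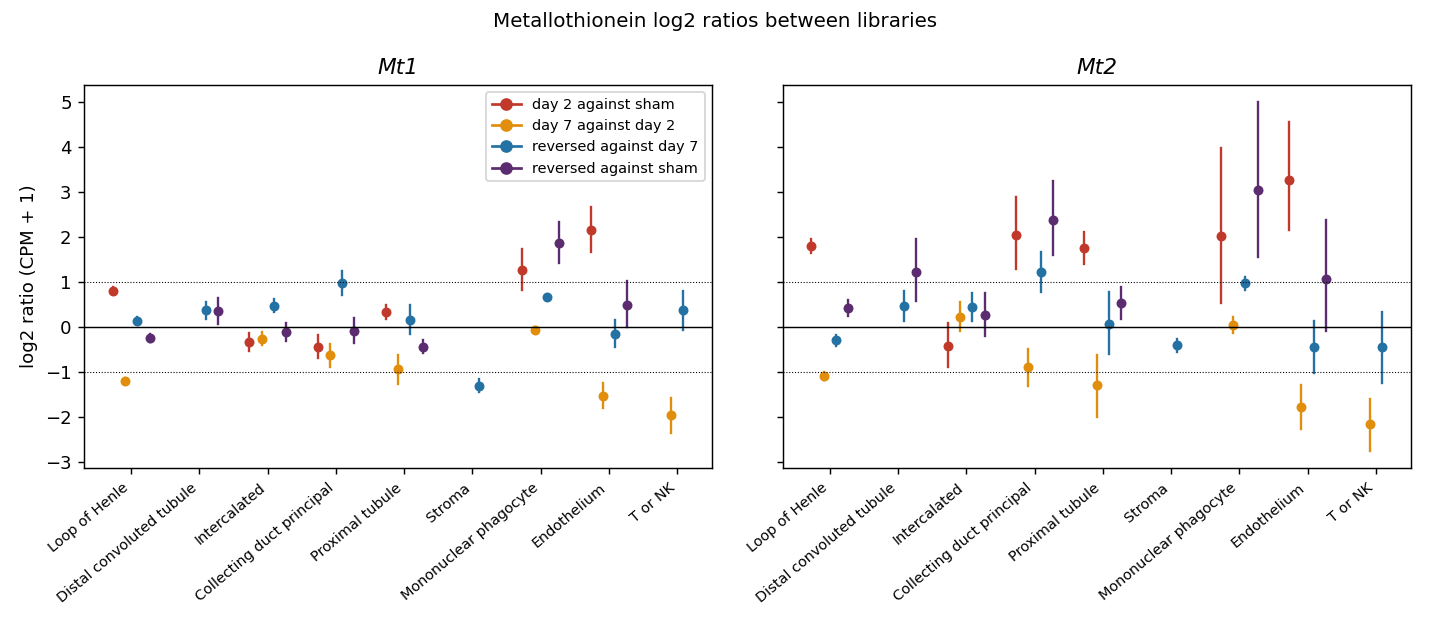
Log2 ratios of Mt1 and Mt2 between libraries by gated class, each with a 95% conditional binomial interval for counting error; dotted lines mark 2-fold. For day 2 against sham the Mt2 ratio is 1.81 in the loop of Henle, 3.28 in endothelium and -0.41 in intercalated cells.

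The 2 metallothioneins did not keep 1 proportion. Mt2 made up 17.2% of Mt1 plus Mt2 UMIs in sham loop cells (15.6 to 18.9%), 29.2% at day 2 (28.5 to 30.02%), 31.0% at day 7 and 24.9% after reversal. In phagocytes the share was 6.52% in sham, 11.1% at day 2, 11.9% at day 7 and 14.4% after reversal. In principal cells it went from 6.79% in sham (3.85 to 10.9%) to 29.2% at day 2 (25.3 to 33.4%). Stroma was highest in its 2 libraries of at least 30 cells, at 40.9% at day 7 and 56.3% after reversal. Intercalated cells stayed between 14.3 and 19.1% in the 4 libraries. Among the 9 classes compared, phagocytes had the lowest share at day 2, day 7 and after reversal, and sham was the lowest library in every epithelial class but the intercalated cells.

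**Figure D4:**
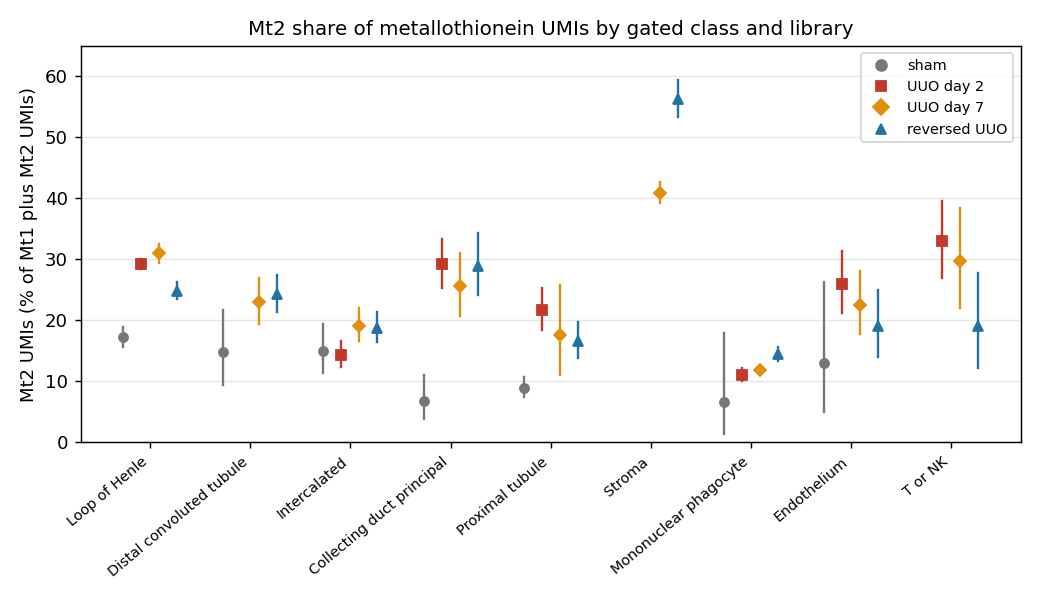
Mt2 UMIs as a percent of Mt1 plus Mt2 UMIs by gated class and library, with Clopper-Pearson intervals, for classes of at least 30 cells. Phagocytes lie at 6.52 to 14.4% and stroma at 40.9 and 56.3%.

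At an equal 1000 UMIs per cell, the share of cells with Mt2 was higher among cells with Mt1 than among cells without in 26 of the 32 sums of class and library with at least 30 cells. In the other 6, none of the 7 to 29 cells with Mt1 had Mt2: proximal tubule at day 7, sham principal cells, sham phagocytes, endothelium in sham and after reversal, and T or NK cells after reversal. In day 2 loop cells, Mt2 was present in 63.8% of 224 cells with a Mt1 UMI and in 29.0% of 31 without. The same shares in phagocytes were 7.36% of 163 cells and 4.44% of 360 at day 2, and 15.5% of 220 and 4.90% of 367 after reversal. In stroma they were 64.1% and 12.8% at day 7, with 39 cells each, and 33.3% and 15.2% after reversal, with 33 cells each. The size of the gap thus varied within a class, and cells of 1 library share its free RNA.

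Slc30a1, the zinc exporter, varied less between classes than Mt1. In sham it ran from 10.4 CPM in the loop of Henle through 15.5 in proximal tubule, 18.7 in distal convoluted tubule (2 UMIs), 19.8 in principal cells (6 UMIs) and 24.3 in intercalated cells (8 UMIs) to 29.2 in endothelium. The intervals of neighbours in that order overlapped, and those of proximal tubule and endothelium (17.3 to 46.2) did too. At day 7 the order ran from 3.09 in T or NK cells, 9.50 in phagocytes, 9.57 in intercalated cells and 12.1 in stroma up to 29.1 in endothelium and 34.8 in proximal tubule. In proximal tubule cells it was at 15.5 CPM in sham (13.2 to 18.1), 30.5 at day 2 (24.6 to 37.4), 34.8 at day 7 (25.1 to 47.0) and 20.4 after reversal (17.0 to 24.2). Sham was lowest, and its interval was apart from those of day 2 and day 7. The ratio of day 2 to sham was 0.93 (0.56 to 1.296) and that of reversed UUO to day 7 was -0.74 (-1.24 to -0.22). Endothelial Slc30a1 stayed between 24.9 and 33.0 CPM in the 4 libraries with overlapping intervals. Phagocytes had 0 UMIs in 60 sham cells, which allows up to 13.6 CPM, and 6.54, 9.50 and 10.4 CPM later, so no ratio to sham is given. T or NK cells had 3.09 to 7.11 CPM after sham, below the proximal tubule level in each library. Within proximal tubule, S3 cells had 21.1 CPM in sham, 50.2 at day 2 (18 UMIs, 29.8 to 79.4), 42.2 at day 7 and 39.0 after reversal (28.4 to 52.4). S1 cells had 15.3, 26.2 (19.4 to 34.5), 34.0 and 16.2 (12.7 to 20.4) CPM. The intervals of S1 and S3 were separate after reversal and overlapped in the other 3 libraries.

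**Figure D5:**
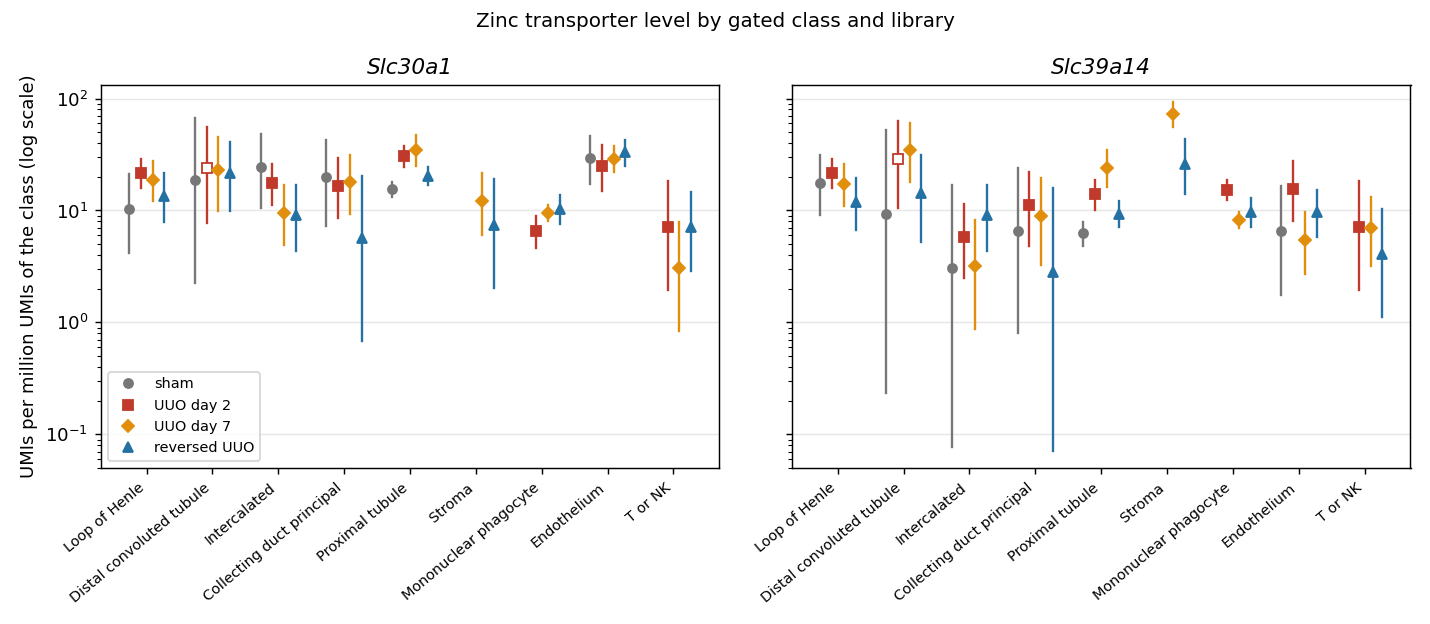
Level of Slc30a1 and Slc39a14 in CPM (log axis) by gated class and library, with exact Poisson intervals; open symbols have fewer than 30 cells, and classes under 20 cells or with no UMI are left out. Slc39a14 is highest in day 7 stroma, at 72.7, and Slc30a1 lies between 24.9 and 33.0 in endothelium.

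Slc39a14, the zinc importer, was highest in stroma, at 72.7 CPM at day 7 (66 UMIs, 56.2 to 92.4) and 25.9 after reversal (14 UMIs, 14.1 to 43.4). It was 2-fold lower in the latter (-1.45, -2.36 to -0.63), as were 5.77% of 6139 genes. Next in order at day 7 were distal convoluted tubule at 34.5 CPM (17.8 to 60.3), which overlapped stroma, then proximal tubule at 24.0 and the loop at 17.2. The lowest were endothelium at 5.42 and intercalated cells at 3.19 CPM (4 UMIs). In proximal tubule cells it was at 6.23 CPM in sham (4.799 to 7.96), 13.9 at day 2 (10.0 to 18.8), 24.0 at day 7 (16.1 to 34.5) and 9.39 after reversal (7.15 to 12.1). Day 7 was highest and sham lowest. The ratios were 1.04 for day 2 against sham (0.50 to 1.57) and -1.27 for reversed UUO against day 7 (-1.89 to -0.61), where 6.92% of 9761 genes were 2-fold lower. In T or NK cells the level was 7.11 CPM at day 2 and 6.95 at day 7. Subtracting the pooled level of phagocytes, T or NK cells and endothelium made the day 2 value -1.43. Phagocytes, part of that pool, had a higher day 2 level than proximal tubule, so no conclusion is drawn from it. Phagocyte Slc39a14 was at 15.3 CPM at day 2, 8.25 at day 7 and 9.71 after reversal, with 0 UMIs in sham.

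Across the 32 sums of class and library with at least 30 cells, in 9 classes, Mt1 and Mt2 were each other's nearest gene among 6410 compared, with a Pearson r of 0.92 on log2 CPM. The next genes for Mt1 were Mitf (0.85), Slit2 (0.78), Dapk1 (0.77) and Kng2 (0.77), and for Mt2 they were Ak1 (0.80), Slit2 (0.77), Gpm6b (0.76) and Dbn1 (0.76). Slc30a1 was nearest to Nr2f6 (0.84), Phactr4 (0.81), Wsb2 (0.81), Insr (0.79) and Bod1 (0.78), and its r with Mt1 was 0.0026. Slc39a14 was nearest to Gas1 (0.71), Col5a2 (0.67), Nr2f2 (0.67), Aebp1 (0.64) and Socs2 (0.64), and its r was 0.39 with Mt1 and 0.54 with Mt2. Sums of 1 library share its depth and free RNA and classes recur, so these values are a description of likeness only.

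None of the 6 measured zinc exporters and none of the 9 measured importers beside the members passed 2-fold in proximal tubule cells for day 2 against sham, where 8.24% of all genes were 2-fold higher. Slc30a2 (-0.61) and Slc39a1 (-0.66) were the farthest from 0, and Slc39a11 (-0.53), Slc30a6 (0.46), Slc30a7 (0.40) and Slc39a9 (-0.20) were nearer. In loop cells none of 4 exporters and 7 importers passed it (9.5% of all genes higher). In phagocytes none of 5 exporters and 3 of 8 importers were 2-fold higher, against 19.1% of all genes.

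Of 6 genes of metal-responsive transcription, 3 were measured in loop cells for day 2 against sham. None passed 2-fold (9.5% of all genes higher, 4.67% lower). The median log2 ratio was -0.00055 against 0.12 for all genes. Mtf1 was not among those 3, and its loop level was 9.46 CPM at day 2 and 19.4 at day 7. In proximal tubule cells all 6 were measured and 1 passed 2-fold, against 8.24% of all genes: Zfp36 (1.91), which encodes an RNA-binding protein, with Mtf1 at 0.95 and Zfp143 at 0.84. Zfp36 is also on the list of dissociation genes below. Phagocyte Mtf1 was at 18.2 CPM in sham, 18.1 at day 2, 14.9 at day 7 and 14.1 after reversal.

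Most measured genes known to answer to IL-6 and STAT3 were 2-fold higher at day 2 than in sham in each class compared. In proximal tubule cells 10 of 11 measured were, against 8.24% of all genes, with a median log2 ratio of 2.98 against 0.26 for all genes, and none was lower. Lcn2 (6.01), Fgg (5.39) and Fgb (4.77), which encode lipocalin and fibrinogen chains, were the farthest from 0. In loop cells 10 of 11 were 2-fold higher, against 9.5% of all genes, and the median was 3.04. The counts were 7 of 9 in intercalated cells (11% of all genes), 4 of 6 in principal cells (13.9%), 7 of 9 in endothelium (3.46%) and 7 of 10 in phagocytes (19.1%). Cells of 1 library share its free RNA, and its part in these counts was not tested. After reversal against day 7, 8 of 11 in proximal tubule were 2-fold lower (6.92% of all genes), and 4 of 10 in loop cells (3.18%). The counts were 3 of 9 in intercalated cells (3.62%), none of 6 in principal cells (4.36%), 1 of 9 in endothelium (1.37%) and 4 of 13 in phagocytes (0.895%). Loop Lcn2 was at 10.4 CPM in sham, 3502 at day 2, 2378 at day 7 and 643 after reversal.

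Glucocorticoid-responsive genes passed 2-fold in 2 of 8 measured in proximal tubule cells at day 2 (Sgk1 at 1.98 and Ddit4 at 1.66, with Klf9 at 0.51) and in 1 of 7 in loop cells, where 8.24% and 9.5% of all genes did. Nrf2 targets passed it in 1 of 9 (Hmox1, heme oxygenase, at 1.82, with Gclc at 0.70 and Srxn1 at 0.60) and in 2 of 7 in the same classes. The 1 of 7 and 1 of 9 lie near those shares. In phagocytes 4 of 9 Nrf2 genes were 2-fold higher at day 2, against 19.1% of all genes. Phagocyte Hmox1 was at 40.9 CPM in sham, 210 at day 2, 66.2 at day 7 and 134 after reversal. The zinc-binding S100 genes S100a8 (4.95) and S100a9 (5.12), both of 2 measured, were 2-fold higher in proximal tubule cells at day 2 (8.24% of all genes). Both were also 2-fold higher in each of the other 5 classes compared, with median log2 ratios from 3.96 in endothelium to 6.57 in phagocytes. The shares of all genes 2-fold higher in those classes ran from 3.46% in endothelium to 19.1% in phagocytes. The day 2 level of S100a8, best known from neutrophils, was 81.1 CPM in proximal tubule, 80.6 in the loop, 73.3 in endothelium and 150 in phagocytes. The difference was thus found in every class compared, and the part of free RNA in it was not tested.

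Genes known to respond to tissue dissociation also differed between libraries. In proximal tubule cells 12 of 13 measured were 2-fold higher at day 2 than in sham, against 8.24% of all genes, among them Jun (2.84), Junb (2.62) and Hspb1 (2.40). Junb is also on the IL-6 and STAT3 list, and Zfp36 on that of metal-responsive transcription, so the lists share genes. In loop cells 6 of 14 were 2-fold higher and 1 lower at day 2, with a median of 0.96 (9.5% of all genes higher, 4.67% lower). After reversal against sham all 15 were 2-fold higher in loop cells, with a median of 1.93, against 12.8% of all genes, and the ratios there were -0.25 for Mt1 and 0.42 for Mt2. In phagocytes the counts were 6 of 15 at day 2 and 9 of 15 after reversal, against 19.1% and 18.5% of all genes. The part of dissociation in the metallothionein levels was not tested.

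Cells that passed no class gate, 231 at day 2 and 240 at day 7, also held much metallothionein. Their Mt1 was at 164 CPM in sham, 1112 at day 2, 1064 at day 7 and 429 after reversal, and Mt2 made up 33.0% of the pair at day 2. They held 11.5% of the Mt1 UMIs of day 2 and 11.9% of those of day 7. No class was given to them.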

How the data were processed

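The deposited droplet files hold raw counts of UMIs by the authors, per the file headers and values, and the Smart-seq2 file holds raw read counts per well. The submitters' processing notes name Cell Ranger, STAR, GRCm38 and mm10; versions are not given in the sources used here. Per the labels' protocols the tissue was dissociated cold and live cells were sorted by DAPI.

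Cells needed 200 genes or more and a mitochondrial share of 50% or less. A cell joined a class if its marker share was at least 4.0% of that of the class's 50 top cells, with at least 2 markers and 3 UMIs. Cells whose second class reached 25.0% of the first were left out, which was the only treatment of doublets (100, 66, 330 and 140 cells from sham to reversed UUO). UMIs were summed per class and library. Adding 1 CPM before the log shrinks ratios of rare genes. Ratios carry exact conditional binomial intervals, levels exact Poisson and shares Clopper-Pearson intervals, all at 95%. For zero counts the limit is 3 counts per library. Shares at equal depth came from 1000 UMIs drawn per cell, and no kept cell was shallower. A 2-fold count covers genes with at least 30 UMIs over both libraries.

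Genes are named if they are members, the 5 nearest genes of a member (mean of at least 20 CPM) or, per list, the 3 with the largest absolute ratio in proximal tubule cells for day 2 against sham. Values of those genes in other classes, and the per-library levels of Lcn2, Hmox1 and Mtf1, were chosen after they were seen. The members, markers and lists were chosen with earlier results of these data known. When tested on simulated data (proximal tubule, day 2 against sham, 9983 genes), 94.5% of 200 genes changed 4-fold passed 2-fold and 0.501% of the others did. The simulated counts carried counting error only, with no spread between mice or cells, so these shares are no error rates for the real libraries. Software was Python 3.11.15 with numpy 2.4.6, scipy 1.17.1, pandas 2.3.3 and matplotlib 3.10.9; scaling alternatives used TMM from edgeR 4.0.16 and the size factors of DESeq2 1.42.0.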

Additional observations from a re-analysis of the deposited data

Results flagged for a closer look

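Mt1 moved in opposite directions in different classes in 3 comparisons, and Mt2 in 1, each time with intervals that excluded 0 on both sides; the difference between classes was not tested, since there is 1 library per time point. For day 2 against sham, the Mt1 log2 ratio was 2.16 in endothelium and -0.43 in collecting duct principal cells. With the T or NK level subtracted, the Mt1 value of endothelium was -1.04, of the same sign as in principal cells. One day 2 T or NK cell held 97 of the 154 Mt1 UMIs of its class. With the top T or NK cell left out of that level, the endothelial value was positive again. Over cells with at most 20% mitochondrial UMIs the Mt1 value of principal cells was 0.05. For reversed UUO against day 7, Mt1 was at 0.98 in principal cells and -1.3 in stroma, and Mt2 at 1.22 and -0.41 in the same classes. For reversed UUO against sham, Mt1 was at 1.87 in mononuclear phagocytes and -0.43 in proximal tubule cells. Over cells with at most 20% mitochondrial UMIs the Mt1 value of proximal tubule was 0.16. No Mt1 remained in its reversed UUO cells after the pooled level of phagocytes, T or NK cells and endothelium was subtracted. Each of those classes had more Mt1 there than proximal tubule (86.9 CPM), with 716 in phagocytes. Nothing could remain, so no conclusion is drawn from that subtraction. In the principal cells of reversed UUO, 1 of 46 cells held 22.8% of the Mt1 and 1 held 47.3% of the Mt2 UMIs.

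The Smart-seq2 sample entered no comparison. Of its 768 wells, 542 had at least 10000 reads in genes, with a median of 258908 reads, and every one of them had reads of at least 2 of the phagocyte markers. At least 2 markers were also read for B cells in 42.1% of these wells, for proximal tubule in 35.6% and for endothelium in 13.7%, and their part in the values below was not tested. Mt1 reads were found in 73.8% of these wells (69.9 to 77.5%), with a median of 35.0 CPM and a highest well of 3543 CPM, and Mt2 reads in 9.04% (6.76 to 11.8%). Of 49 wells with Mt2, 41 also had Mt1. Slc39a14 reads were found in 14.9% of wells, and Slc30a1 is listed at 0 in all of them. Whether that row was counted correctly is not known, so the 0 is not read as absence. These are reads and not molecules, and the wells mix time points.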

How the results depend on the processing

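No paired analysis was possible because each time point has 1 library, and no replicate could be left out. Values below are log2 ratios of Mt1 plus Mt2 unless a gene is named, and the comparisons are day 2 against sham (A), day 7 against day 2 (B), reversed UUO against day 7 (C) and against sham (D). As reported, the loop of Henle gave 1.04, -1.17, 0.02 and -0.11 for A to D, proximal tubule 0.56, -1.02, 0.14 and -0.31, and phagocytes 1.34, -0.05, 0.70 and 1.99. With at most 20% mitochondrial UMIs per cell, the loop gave 0.88, -1.30, -0.18 and -0.60, and proximal tubule gave 1.23 (A), -1.34 (B) and 0.29 (D). With totals without mitochondrial UMIs, the loop gave 0.77, -1.35, 0.20 and -0.39, and proximal tubule 0.36 (A). TMM factors gave -1.49 (B) and -0.37 (D) in the loop, 0.21 (A) and -0.67 (D) in proximal tubule and 0.62 (C) in phagocytes. DESeq2 size factors gave -1.43 (B) and -0.40 (D) in the loop, 0.23 (A) and -0.66 (D) in proximal tubule and -0.11 (B) in phagocytes. Thinning to 1000 UMIs gave -0.012 (D) in the loop and 2.03 (A), 0.13 (B) and 2.83 (D) in phagocytes. Subtracting the pooled level of phagocytes, T or NK cells and endothelium gave 0.97 (A), -1.31 (B) and -0.38 (D) in the loop. In proximal tubule it gave -4.58 (A), 0 (B) and -4.58 (D), and nothing remained after sham. Phagocyte Mt1 was above the proximal tubule level in every library, so no conclusion is drawn from those proximal tubule values.

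Alternatives that subtract the T or NK level or leave out single cells were chosen after seeing the data. With the T or NK level subtracted, Mt1 plus Mt2 stood at 0.96 (A) in the loop, at -6.46 (A), 0 (B) and -6.46 (D) in proximal tubule and at -0.45 (A), 1.76 (B) and 0.81 (C) in phagocytes, and in endothelium at -5.05 (A) and 5.06 (B). Mt1 in endothelium stood at -1.04 (A) and 0.61 (B), and Mt2 at 0.31 (B). With the top T or NK cell of each library left out of that level, Mt1 plus Mt2 stood at -0.92 (A), -2.99 (B), -2.09 (C) and -6.00 (D) in proximal tubule and at 0.11 (B) and 0.79 (C) in phagocytes, and Mt2 in proximal tubule at -0.35 (A). With the pooled level subtracted, Mt2 in proximal tubule was at -0.34 and Slc39a14 at -1.43 (A). The cause of these differences between settings was not tested, for the subtractions included. The ratios past 2-fold with intervals apart from 0 numbered 32, with 416 alternatives. They include ratios of the Mt1 plus Mt2 sum beside those of each gene, so the same UMIs recur among them. Of the alternatives, 397 kept their sign, 10 gave 0 and 9 changed sign, while 358 stayed past 2-fold in the same direction and 58 did not. Without the filter of 30 UMIs, 1475 genes in place of 823 were 2-fold higher in proximal tubule (A). Depth limits the rare genes: Slc30a1 and Slc39a14 had at most 160 UMIs in any class and library.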
